A study of Mus musculus with 16 samples.

Results

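The genes described here encode laminin chains and the other non-collagen proteins of basement membranes. They are Lama2, Lama4, Lama5, Lamb1, Lamb2, Lamc1, Nid1, Nid2, Hspg2 and Agrn, chosen by name, 10 of the 24411 genes in the count table. They were followed in 16 RNA sequencing libraries of mouse muscle stem cells (MuSCs), 4 in each of 4 groups. The groups are uninjured control MuSCs, uninjured TRF2 MuSC-cKO MuSCs, and both genotypes 3 days after injection of 10 µl of notexin into the tibialis anterior muscle (3 DPI). Notexin is a snake venom toxin that destroys myofibers. The labels call the genotypes wild type and TRF2 knockout. In the knockout, a floxed Terf2 gene is recombined by a tamoxifen-inducible Cre expressed from the Pax7 locus, so that recombination is directed to cells that express Pax7 while tamoxifen is present, and to their progeny. The mice were on a C57BL/6 background, and their age at the first tamoxifen dose was 8 to 10 weeks. Cells were sorted as negative for CD45, CD31, CD11b and Sca1 and positive for α7-integrin together with VCAM or CD34. The age at harvest of each mouse is not given in the labels, nor whether libraries of a group came from separate mice, so that p-values measure the spread between these libraries.

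The basement membrane is the thin sheet of matrix that surrounds each myofiber and under which MuSCs lie. Laminins are heterotrimers of an alpha, a beta and a gamma chain that polymerise at the cell surface, and most laminins of muscle contain the gamma chain of Lamc1. Nidogens link laminin to collagen IV. Perlecan, the product of Hspg2, and agrin are large proteoglycans that carry heparan sulfate chains and bind laminin and the receptor dystroglycan. Loss of the laminin alpha 2 chain causes a congenital muscular dystrophy.

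After injury, Lama2, Lamb2, Lamc1 and Hspg2 fell in control MuSCs, each 2.50-fold or more, and Lama2, Lamb2 and Hspg2 passed the test under the TRF2 MuSC-cKO label as well, where Lamc1 was 2.47-fold lower and just missed it and the call of Lamb2 was lost in 7 of 17 alternatives. Lama4 rose in control MuSCs, and so did Nid1 by a call that most alternatives lost. Macrophage and myeloid markers also rose after injury in these bulk libraries and MuSC markers fell, and their part in these changes was not tested. Without injury, Lamc1 was 2.26-fold lower in TRF2 MuSC-cKO than in control MuSCs, and no other gene of the 10 passed the test. At 3 DPI none of the 10 passed it between genotypes, nor did any other of the 14559 genes tested. In simulated counts that comparison recovered only 20.3% of log2 changes of 2, so that lack of a call there does not show lack of change.

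Promoter sequences are shown because TRF2, a protein of telomeres, is studied in these cells at DNA that can fold into G-quadruplexes. RefSeq (GRCm38.p6) gave windows of 300 bases, 250 before and 50 after a start site, for 7 of the 10 genes (8 windows, 2 of them for Agrn), and none for Lama4, Lamc1 and Nid2. A G-quadruplex motif was searched on both strands as 4 runs of at least 3 G with 1 to 7 bases of any kind between them. It was found in 5 of the 8 windows (Hspg2, both Agrn windows, Lamb2 and Nid1), and in 18.6% of all 32851 windows. The hexamer GGGCGG, the GC box bound by Sp1, was found in 7 of the 8 windows and in 35.7% of all windows. Some of its copies lie within G-quadruplex matches. The telomere repeat TTAGGG was found in 1 of the 8 windows, that of Hspg2, and in 10.6% of all windows. For 4 windows, the part that lies before the start site and outside every exon of GENCODE M21 is given 5′ to 3′ on the strand of the gene, with G-quadruplex matches in capitals. Hspg2, Lamb2 and Lama2 are the genes called lower after injury under both genotype labels, and Agrn is a gene that passed the test in no comparison.
Hspg2, chr4:137468553-137468768, plus strand: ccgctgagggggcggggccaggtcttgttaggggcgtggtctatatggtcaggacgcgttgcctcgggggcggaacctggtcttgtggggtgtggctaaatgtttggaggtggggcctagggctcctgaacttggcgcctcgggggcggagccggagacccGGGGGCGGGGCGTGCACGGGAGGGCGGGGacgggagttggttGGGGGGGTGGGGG
Lamb2, chr9:108479612-108479735, plus strand: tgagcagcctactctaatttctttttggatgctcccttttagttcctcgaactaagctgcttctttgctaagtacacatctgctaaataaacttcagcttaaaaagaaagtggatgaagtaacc
Lama2, chr10:27616943-27617192, minus strand: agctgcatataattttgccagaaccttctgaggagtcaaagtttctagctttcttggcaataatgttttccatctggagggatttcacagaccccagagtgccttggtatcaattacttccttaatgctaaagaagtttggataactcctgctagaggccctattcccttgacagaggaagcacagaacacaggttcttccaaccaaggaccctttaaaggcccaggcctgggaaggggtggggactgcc
Agrn, chr4:156197489-156197738, minus strand: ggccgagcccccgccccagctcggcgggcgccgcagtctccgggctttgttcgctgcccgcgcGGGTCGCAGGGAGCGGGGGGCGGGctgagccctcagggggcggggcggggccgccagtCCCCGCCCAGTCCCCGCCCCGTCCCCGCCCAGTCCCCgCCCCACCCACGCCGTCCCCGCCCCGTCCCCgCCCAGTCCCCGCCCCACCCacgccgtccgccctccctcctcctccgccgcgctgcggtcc
The window of Agrn holds 4 matches, the most of the 8, and that of Hspg2 holds 2, of which the second runs on past the stretch shown. The match of Lamb2 lies wholly past it, and the window of Lama2, whose RefSeq start lies inside the gene as GENCODE draws it, holds none. These are matches of letters, not measured sites.

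Before the members, the libraries were checked against their labels. Terf2 lies on chromosome 8 of GRCm38 between 107069400 and 107096547 and had 71.5, 94.5, 66.3 and 73.1 CPM (counts scaled to library size with TMM factors over all 16 libraries) in uninjured control and at 49.7, 46.7, 58.7 and 27.2 CPM in uninjured TRF2 MuSC-cKO libraries. The genotypes did not overlap, but Terf2 did not pass the test (log2 fold change -0.62, SE 0.27, adjusted p = 0.199 in edgeR). At 3 DPI it was at 35.5, 48.6, 48.2 and 42.8 CPM in control libraries and at 52.6, 21.9, 66.9 and 89.7 CPM in those labelled TRF2 MuSC-cKO. Since it was not lower there as a group, these are called the libraries labelled TRF2 MuSC-cKO. Library totals ran from 620506 to 1351130 estimated counts. Genes with a count numbered 19996 to 21879 in 15 libraries. Replicate 3 of the TRF2 MuSC-cKO label at 3 DPI stands apart with 15387. The 12 MuSC markers were all detected, and their summed level was 4311 to 6784 CPM in uninjured control and 2542 to 3525 CPM in uninjured TRF2 MuSC-cKO libraries. At 3 DPI it was 1243 to 1755 CPM in control and 581 to 819 CPM in the libraries labelled TRF2 MuSC-cKO. In uninjured muscle no name code of the libraries holds both genotypes, so that code and genotype cannot be told apart, while at 3 DPI 1 code holds 2 libraries of each genotype.

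Levels were first compared between the 10 genes on a per-length scale, the rescaled table brought to an equal total in each library, and their order holds for the lengths used there. In uninjured control MuSCs, Hspg2 was highest at 385 ± 86.8 (SD, n = 4), next to Lamc1 at 362 ± 45.4. Lama2 followed at 194 ± 29.1 and Lamb2 at 149 ± 7.36. Nid1 was at 64.2 ± 12.1, Lamb1 at 41.1 ± 5.55, and Agrn, Nid2 and Lama5 were at 36.2 ± 8.90, 36.1 ± 4.42 and 31.2 ± 7.73. Lama4 was lowest at 17.5 ± 2.94. The ranges of Hspg2 and Lamc1 overlapped, as did those of Lama2 and Lamb2, and those of Lamb1, Agrn, Nid2 and Lama5, so that the order within each of these sets is not resolved. Every Lama4 value (15.2 to 21.5) lay below every other member's value in these libraries.

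At 3 DPI the order in control MuSCs was flatter. Hspg2 was at 149 ± 23.7 (SD, n = 4), Lamc1 at 109.9 ± 6.70, Nid1 at 100.4 ± 18.6, Lamb2 at 59.8 ± 8.29, Lamb1 at 57.6 ± 8.81 and Lama2 at 43.7 ± 7.21 on the per-length scale. Lama4, at 39.6 ± 6.82, overlapped Lama2 in range. The levels from the highest to the lowest mean of the 10 spanned 385 to 17.5 in uninjured control MuSCs and 149 to 26.3 at 3 DPI, where Lama5 was lowest.

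**Figure D1:**
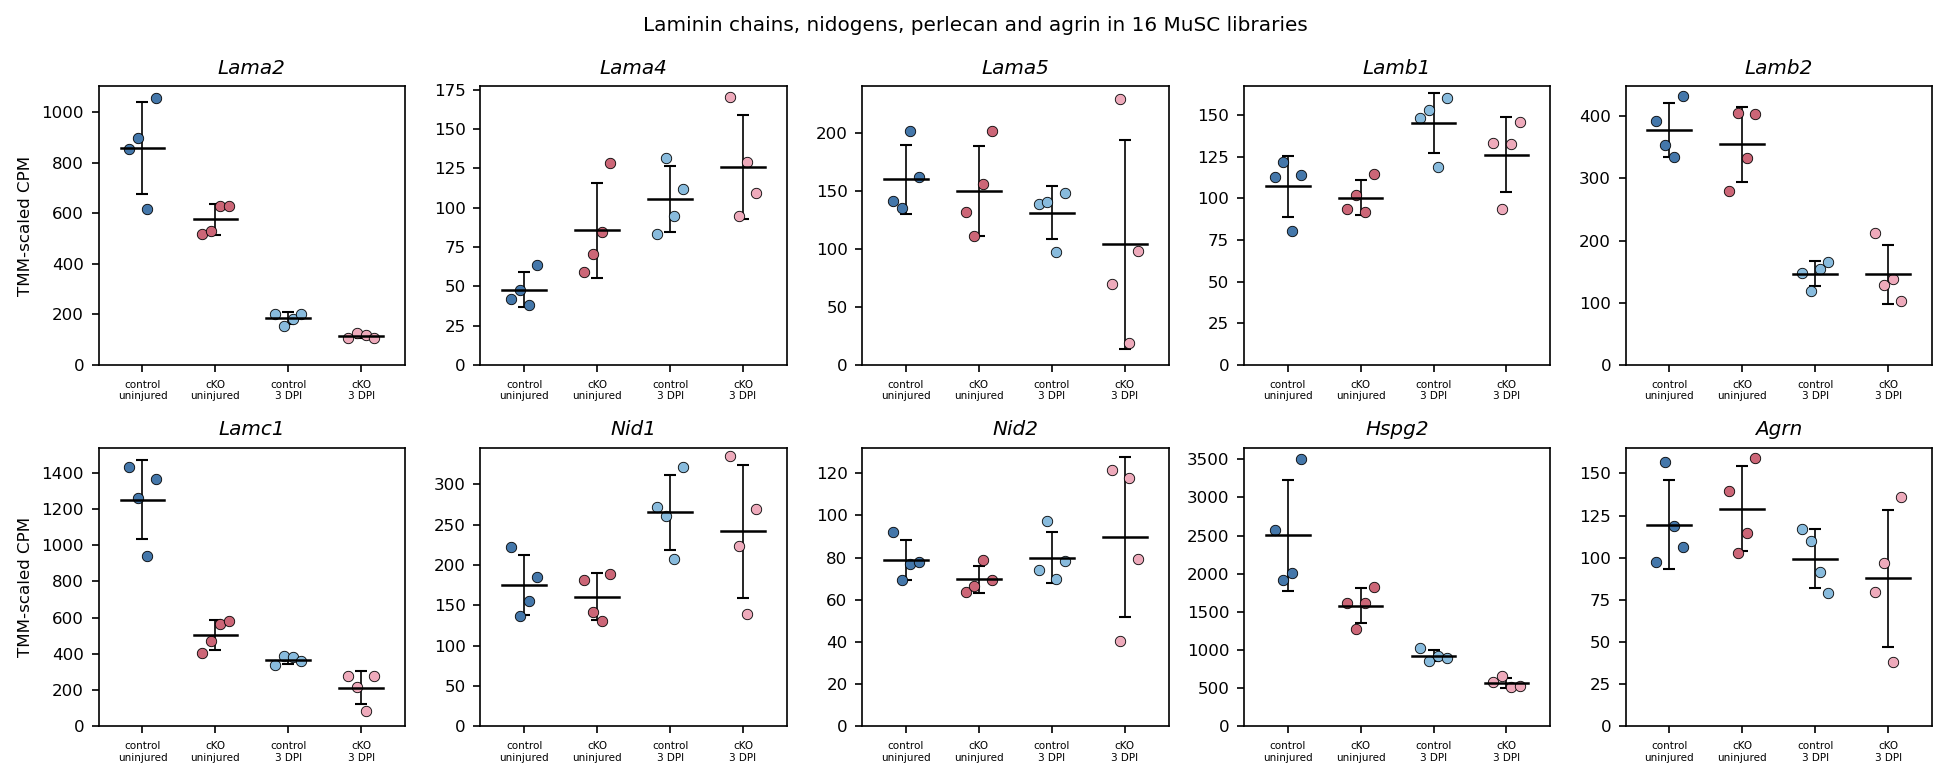
TMM-scaled CPM (linear axes from 0) of the 10 genes in each library. The label cKO stands for TRF2 MuSC-cKO. Points are libraries, horizontal lines group means and bars 1 SD (n = 4). Lamc1 of uninjured TRF2 MuSC-cKO libraries (406 to 580.2 CPM) lies below every uninjured control library (942 to 1434 CPM), and Lama2, Lamb2 and Hspg2 are lower at 3 DPI under both genotype labels.

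The first comparison asked what loss of TRF2 did in uninjured muscle. Of the 10 genes, 1 was called lower (Lamc1) and 0 higher, where a call is an adjusted p under 0.02 and a fold change over 1.5. Of all 14048 genes tested, 2.63% were called lower and 0.584% higher. These are 370 and 82 genes, against 212 and 176 when scaled by library size alone, and 214 to 488 and 40 to 86 with 1 library left out. Both counts dropped over 1.5-fold without control replicates 1, 2 or 4 or TRF2 MuSC-cKO replicate 1, and that of higher genes also without TRF2 MuSC-cKO replicate 3. The median log2 fold change of the 10 was 0.01, against 0.06 over all genes tested, and 4 of the 10 estimates were below 0. In bulk RNA, fewer cells of a type and less RNA per cell cannot be told apart.

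Lamc1 encodes the gamma 1 chain, shared by most laminins of muscle, and lies on chromosome 1 of GRCm38 from 153218922 to 153332786, minus strand. It was counted at 1434, 1262, 942 and 1368 CPM in control libraries and at 406, 474, 565 and 580.2 CPM in TRF2 MuSC-cKO libraries. Every TRF2 MuSC-cKO library lay below every control library. The log2 fold change was -1.18 (SE 0.19, edgeR's quasi-likelihood test, adjusted p = 8.24e-05), a 2.26-fold lower level. Fits that each left out 1 library gave -1.31 to -1.11 and adjusted p-values from 1.23e-05 to 0.00119, and over all alternatives adjusted p-values ran from 4.67e-12 to 0.0322. The highest came from the rescaled table, with which the call was lost (log2 fold change -1.21).

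Hspg2, perlecan, lies on chromosome 4 from 137468769 to 137570630, plus strand. It was at 2579, 1918, 2011 and 3505 CPM in control and at 1614, 1279, 1613 and 1832 CPM in TRF2 MuSC-cKO libraries, which did not overlap. It was not called (log2 fold change -0.53, SE 0.20, adjusted p = 0.113 from the same test), but was with DESeq2 (log2 fold change -0.60, adjusted p = 0.00914). Lamc1 and Hspg2 were the only 2 of the 10 whose genotypes did not overlap, where groups of 12.6% of all genes tested did not overlap.

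Among the alpha chains, Lama2 was at 856, 900.4, 619 and 1057 CPM in control and 520, 529, 628 and 631 CPM in TRF2 MuSC-cKO libraries. Its log2 fold change was -0.44 (SE 0.19, adjusted p = 0.182, edgeR), and control replicate 3 lay within the range of the TRF2 MuSC-cKO libraries. The gene of this chain, the alpha 2 chain of the mature myofiber basement membrane, lies on chromosome 10 from 26980036 to 27619758, minus strand. Lama4, on chromosome 10 from 38965515 to 39110188, plus strand, encodes the alpha 4 chain found in vessels and developing muscle. It was at 42.0, 47.7, 38.4 and 63.4 CPM in control and 59.2, 70.6, 84.4 and 128 CPM in TRF2 MuSC-cKO libraries. Only control replicate 4 lay within the range of the other genotype. It was not called (log2 fold change 0.95, SE 0.27, adjusted p = 0.0263, edgeR), but was with library size alone as scaling (1.14, adjusted p = 0.00653) and without TRF2 MuSC-cKO replicate 1 (1.07, adjusted p = 0.0195). Without TRF2 MuSC-cKO replicate 4, its estimate was 0.69.

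The remaining 6 genes had estimates between -0.06 (Nid2) and 0.23 (Agrn), none below an unadjusted p of 0.05. For Lamb1 and Lamb2, the beta chains, they were 0.03 and 0.04, with 95% confidence intervals of the log2 fold change from -0.41 to 0.47 and -0.34 to 0.42. For Nid1 the estimate was 0.00 (-0.41 to 0.42), and for Lama5, an alpha chain of many epithelia and vessels, it was 0.02 (-0.41 to 0.46). The estimates of Lama5, Lamb1, Lamb2 and Nid1 changed sign in several alternatives, and that of Nid2 with library size alone as scaling. With 1 library left out, the estimate of Agrn ran from 0.10 to 0.37 and that of Nid2 from -0.14 to -0.0042.

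Other genes of uninjured MuSCs moved alongside. Of the 12 MuSC markers 9 were called lower and 0 higher, among them Itga7 (log2 fold change -1.21), a subunit of the laminin receptor and a marker used in the sort. Of the 7 fibroadipogenic progenitor markers tested 3 were called lower (Col3a1, Dpt and Gsn) and 1 higher (Dcn), and of the pericyte and smooth muscle markers 2 were called higher (Rgs5 and Cspg4). None of the endothelial, Schwann cell, macrophage and myeloid, myofiber or tenocyte markers was called. Summed macrophage and myeloid markers were at 68.2 to 114 CPM in control and 121 to 187 CPM in TRF2 MuSC-cKO libraries. Summed Schwann cell markers were at 308 to 383 CPM and 431 to 578 CPM, also without overlap, and all 7 of them that were tested had estimates above 0 (median 0.69). Summed fibroadipogenic progenitor markers went the other way without overlap, at 6100 to 9350 CPM in control and 1999 to 3312 CPM in TRF2 MuSC-cKO libraries. The part of these differences in the change of Lamc1 was not tested.

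The partners of these proteins were counted from lists written by hand. Of 8 basement membrane collagens 3 were called lower, Col15a1 (log2 fold change -2.26), Col4a1 (-1.07) and Col4a2 (-0.79), the last 2 of which form the main collagen IV of basement membranes. Of 13 matrix receptors 4 were called lower and 1 higher. Those lower included Itga7, Dag1, which encodes dystroglycan (-1.09), and Sdc4, a syndecan (-0.88), and the 1 that rose was Itgb4 (1.19). Of 12 genes of basement membrane assembly and linkage 2 were called lower, Sparc (-1.73), a collagen-binding protein, and Pxdn (-1.35), which crosslinks collagen IV, and 1 higher, Smoc2 (1.31). Of 10 proteases 1 was lower (Ctsl, -1.09) and 1 higher (Mmp2, 0.88). Of 14 heparan sulfate enzymes 0 were lower and 1 was higher (Sulf2, 1.24). None of 13 dystroglycan glycosylation enzymes and none of 6 other laminin chains and netrin 4 was called.

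At 3 DPI the same comparison called 0 of the 10 genes, and 0 of the 14559 tested (0%), with edgeR. Without replicate 3 of the TRF2 MuSC-cKO label, edgeR called 13 genes lower and 3 higher, and with all 16 libraries in 1 fit 3 lower, with none of the 10 among them. An unadjusted p under 0.05 was reached by 3 of the 10 and by 1362 of all genes tested (9.36%). Over all genes, that count was 721 to 2001 with 1 library left out and 2952 with limma. Limma's robust fit called 28 genes, 18 lower and 10 higher, and DESeq2 8, 7 lower and 1 higher, with none of the 10 among them in either. The groups did not overlap in 3 of the 10 genes, each lower in the libraries labelled TRF2 MuSC-cKO, and in 7.84% of all genes tested. The median log2 fold change of the 10 was -0.15, against 0.00 over all genes tested, and 7 of the 10 estimates were below 0.

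These 3 genes were Hspg2, Lama2 and Lamc1. Hspg2 was at 1027, 858, 923 and 901 CPM in control libraries and at 589, 661, 514 and 525 CPM in those labelled TRF2 MuSC-cKO (log2 fold change -0.65, SE 0.19, adjusted p = 0.452, edgeR). Lama2 was at 202, 156, 183 and 203 CPM against 106, 125, 119 and 108 CPM (-0.65, SE 0.22, adjusted p = 0.455). Lamc1 was at 341, 389, 381 and 360.4 CPM against 278, 219, 85.5 and 276 CPM (-0.74, SE 0.31, adjusted p = 0.514). The lowest Lamc1 value was that of replicate 3, the library with the fewest genes detected, and without it the log2 fold change was -0.49. Within the name code that holds both genotypes, with 2 libraries each, the log2 fold changes were -0.58 for Hspg2, -0.62 for Lama2 and -0.55 for Lamc1.

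The other 7 genes overlapped between genotypes at 3 DPI. Their log2 fold changes were 0.30 for Lama4, -0.29 for Lama5, -0.16 for Lamb1, 0.03 for Lamb2, -0.10 for Nid1, 0.21 for Nid2 and -0.14 for Agrn, with sign changes in 7 of 18 alternatives for Lamb2, without replicate 3 labelled TRF2 MuSC-cKO for Lama5, Nid1 and Agrn, and among the libraries that share a code in their column names for Lama5, Nid1 and Nid2. Lama5 varied most among the libraries labelled TRF2 MuSC-cKO, at 70.1, 229, 18.6 and 97.9 CPM, around control values of 139 to 148 CPM in 3 libraries and 97.4 CPM in replicate 3. The 18.6 CPM of replicate 3 stand for 15 counts, and without that library the log2 fold change of Lama5 moved from -0.29 to 0.04. Agrn, at 38.4 to 136 CPM, and Nid2, at 40.4 to 122 CPM, were also wide in these libraries. With 1 library left out, the log2 fold change of Lama4 ran from 0.11 to 0.41. That of Lamb1 ran from -0.26 to -0.049 and that of Nid2 from 0.025 to 0.44. Summed MuSC markers were lower in every library labelled TRF2 MuSC-cKO than in every control library, none of the 12 being called, and summed macrophage and myeloid markers were at 2148 to 5979 CPM against 5149 to 6627 CPM. Their part in the 3 differences was not tested. None of the genes in the lists of collagens, receptors, assembly genes, proteases, heparan sulfate enzymes, glycosylation enzymes and other laminin chains was called.

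**Figure D2:**
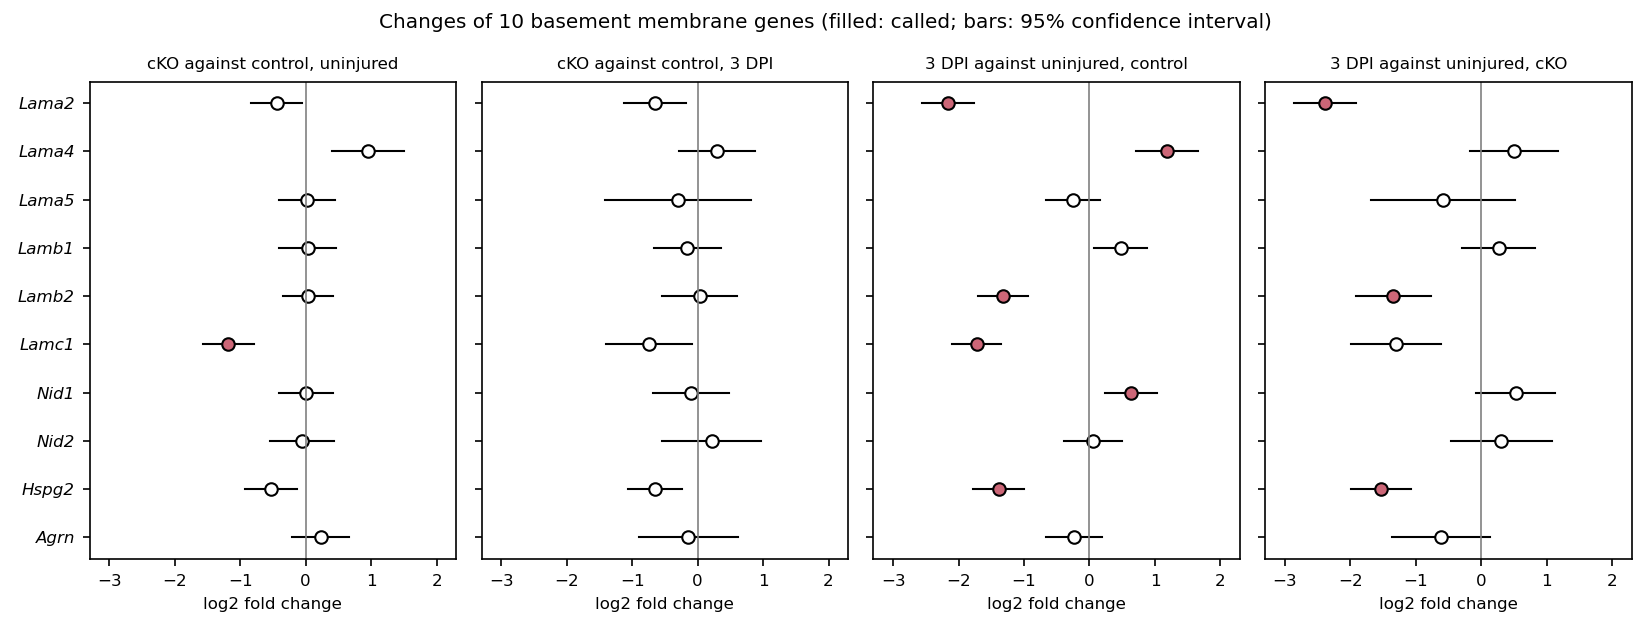
Log2 fold change of each gene in the 4 pairwise comparisons, with 95% confidence intervals from edgeR's fit, and with called genes filled. Lamc1 is filled for the uninjured genotypes (-1.18), 6 genes are filled after injury in control MuSCs and 3 after injury under the TRF2 MuSC-cKO label, and none between genotypes at 3 DPI.

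The next comparison followed control MuSCs from the uninjured state to 3 DPI. Of the 10 genes 4 were called lower (Lama2, Lamc1, Hspg2 and Lamb2) and 2 higher (Lama4 and Nid1), where 9.46% of 15356 genes were called lower and 10.8% higher. These are 1452 and 1652 genes, against 1066 and 1989 when scaled by library size alone. The groups did not overlap in 5 of the 10, 4 of them lower and 1 higher at 3 DPI, and in 24.3% of all genes tested. The median log2 fold change of the 10 was -0.24, against 0.07 over all genes tested.

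Lama2 had the largest fall. From 856, 900.4, 619 and 1057 CPM it went to 202, 156, 183 and 203 CPM, with no overlap (log2 fold change -2.16, SE 0.20, edgeR's quasi-likelihood test, adjusted p = 3.8e-12), a 4.48-fold lower level. Lamc1 went from between 942 and 1434 CPM to between 341 and 389 CPM (-1.72, SE 0.19, adjusted p = 4.22e-10), a 3.30-fold lower level. Hspg2 was 2.62-fold lower (-1.39, SE 0.19, adjusted p = 1.46e-07), from between 1918 and 3505 CPM to between 858 and 1027 CPM. Lamb2, the beta 2 chain of mature muscle and the neuromuscular junction, lies on chromosome 9 from 108479736 to 108490530, plus strand. It went from 392, 353, 334 and 432 CPM to 148, 119.6, 154 and 165 CPM, also without overlap (-1.32, SE 0.19, adjusted p = 3.19e-07), 2.50-fold lower. These 4 calls held in each alternative run.

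Lama4 rose 2.27-fold. It was at 42.0, 47.7, 38.4 and 63.4 CPM without injury and at 83.4, 131, 94.4 and 112 CPM at 3 DPI, with no overlap (log2 fold change 1.18, SE 0.24, adjusted p = 0.000104, edgeR). Nid1, on chromosome 13 from 13437551 to 13512269, plus strand, rose 1.56-fold. It was at 222, 137, 156 and 185 CPM and then at 272, 261, 208 and 321 CPM (0.64, SE 0.20, adjusted p = 0.0117), and control replicate 1 lay above the lowest injured library. That call is not firm, since it was lost without any of 6 of the 8 libraries (control uninjured replicates 2, 3 and 4 and control 3 DPI replicates 1, 2 and 4, log2 fold changes from 0.50 to 0.65, adjusted p-values from 0.023 to 0.12) and with limma and DESeq2.

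The 4 other genes were not called. Lamb1, the beta 1 chain, lies on chromosome 12 from 31265234 to 31329644, plus strand, and was at 113, 122, 80.2 and 114 CPM and then at 148, 153, 119 and 160.5 CPM. Its log2 fold change was 0.48 (SE 0.20, adjusted p = 0.0828, edgeR), and it was called only with library size alone as scaling. Lama5, on chromosome 2 from 180176373 to 180225859, minus strand, had a log2 fold change of -0.25 (95% confidence interval -0.66 to 0.16), and Agrn, on chromosome 4 from 156165290 to 156197488, minus strand, one of -0.24 (-0.67 to 0.19). Nid2, on chromosome 14 from 19751265 to 19811787, plus strand, had one of 0.06 (-0.39 to 0.50). With 1 library left out, the log2 fold change of Lama5 ran from -0.35 to -0.14 and that of Agrn from -0.34 to -0.12. Part of Nid2 is covered by Rtraf on the other strand, and exons of Nid1 and Lama2 by the predicted genes Gm48682 and Gm48084. Whether counting used the strand is not given in the sources used here.

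Between the uninjured TRF2 MuSC-cKO libraries and the libraries labelled so at 3 DPI, 3 of the 10 genes were called, all lower (Lama2, Hspg2 and Lamb2), where 1.61% of 14578 genes were called lower and 2.43% higher. Without 3 DPI replicate 3, calls over all genes went from 235 lower and 354 higher to 513 and 803, and 4 of the 10 were called, Lamc1 being the fourth. Without any other 1 of the 8 libraries there were 134 to 167 lower and 214 to 283 higher. The groups did not overlap in 4 of the 10, all lower at 3 DPI, and in 13.6% of all genes tested. The median log2 fold change of the 10 was -0.61, against 0.01 over all genes tested. Lama2 went from 520, 529, 628 and 631 CPM to 106, 125, 119 and 108 CPM, a 5.25-fold lower level (log2 fold change -2.39, SE 0.22, adjusted p = 1.54e-05, edgeR). Hspg2 went from 1614, 1279, 1613 and 1832 CPM to 589, 661, 514 and 525 CPM, 2.89-fold lower (-1.53, SE 0.21, adjusted p = 0.000418). The 2 calls held in each alternative run.

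Lamb2 went from 280.5, 405, 332 and 403 CPM to 213, 128, 139 and 103 CPM, 2.55-fold lower (log2 fold change -1.35, SE 0.27, adjusted p = 0.00652, edgeR). The groups did not overlap, but the call was lost without any of 5 of the 8 libraries (uninjured replicates 2, 3 and 4 and 3 DPI replicates 2 and 4), where log2 fold changes ran from -1.39 to -1.18 and adjusted p-values from 0.0225 to 0.0376. Lamc1 went from 406, 474, 565 and 580.2 CPM to 278, 219, 85.5 and 276 CPM without overlap and was not called (-1.31, SE 0.32, adjusted p = 0.0248). It was called without 3 DPI replicate 3 (log2 fold change -1.01, adjusted p = 0.00281), with DESeq2, with library size alone, without a filter and with all 16 libraries in 1 fit. Lama4 was at 59.2 to 128 CPM without injury and at 94.6 to 171 CPM at 3 DPI (0.50, SE 0.32, adjusted p = 0.511). Nid1 was at 130.2 to 189 CPM and 139 to 335 CPM (0.52, SE 0.28, adjusted p = 0.408). The log2 fold changes of Lama5, Lamb1, Nid2 and Agrn were -0.59, 0.27, 0.30 and -0.62, none of them called, and their groups overlapped. Leaving out single libraries moved some estimates over 1.5-fold. Without 3 DPI replicate 2, Lama5 was at -1.30, Lamb1 at 0.42 and Nid2 at 0.58, and without replicate 3 Lama5 was at -0.22, Agrn at -0.35 and Nid2 at 0.17. Without replicate 1, Nid2 was at 0.12, Lama4 at 0.31 and Nid1 at 0.32.

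Injury and name code were partly joined under both genotype labels. Within the 1 code that holds control libraries of both states, Lama2 was at 1057 CPM without injury and at 183 and 203 CPM at 3 DPI, and Lamc1 at 1368 CPM and at 381 and 360.4 CPM. Within the code that holds libraries of both states labelled TRF2 MuSC-cKO, Lama2 was at 631 CPM and at 119 and 108 CPM. These are single uninjured libraries and were not tested.

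Markers of other cell types also moved with injury. All 10 macrophage and myeloid markers were called higher in control MuSCs at 3 DPI, from a sum of 68.2 to 114 CPM to one of 5149 to 6627 CPM, and 9 of 10 under the TRF2 MuSC-cKO label, from 121 to 187 CPM to 2148 to 5979 CPM. Ptprc, which encodes CD45, and Itgam, which encodes CD11b, were among them in both, at a mean of 227 and 393 CPM in control MuSCs at 3 DPI, although cells positive for either were gated out. Of the 12 MuSC markers 11 were called lower in control and 8 under the TRF2 MuSC-cKO label, and of the fibroadipogenic progenitor markers 5 were called higher and 3 lower in control and 1 higher (Col1a1) under the TRF2 MuSC-cKO label. Of the pericyte and smooth muscle markers 3 were lower in control, Acta2, Notch3 and Tagln, and Notch3 was under the TRF2 MuSC-cKO label. Their sum fell without overlap in control, from 2482 to 3503 CPM to 920 to 1223 CPM. Under the TRF2 MuSC-cKO label it fell from 2047 to 2913 CPM to 963 to 1256 CPM, also without overlap. Sums of fibroadipogenic progenitor and myofiber markers under that label, and of tenocyte markers under both labels, rose without overlap. In control MuSCs 1 endothelial marker was lower (Tek), and 2 myofiber markers (Ckm and Tnni2) and 1 tenocyte marker (Thbs4) were higher. No Schwann cell marker was called after injury. The part of these shifts in the changes of the laminin genes was not tested.

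**Figure D3:**
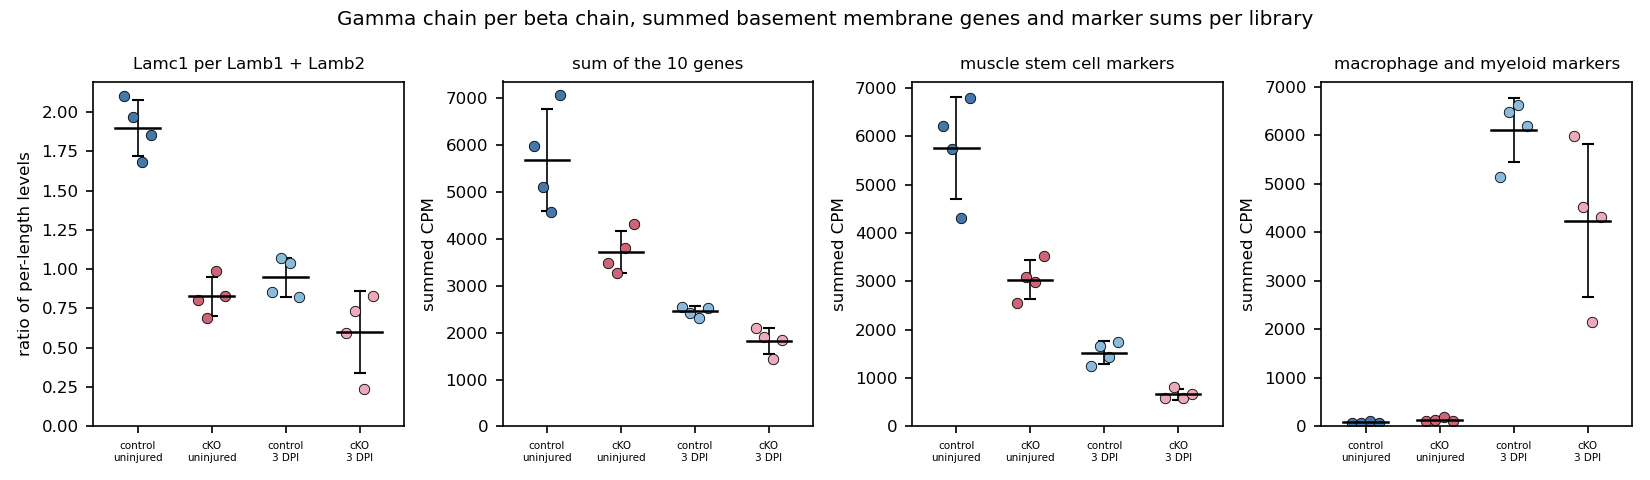
From left to right, the per-length level of Lamc1 divided by that of Lamb1 and Lamb2 together, the summed CPM of the 10 genes, and the summed CPM of the MuSC and of the macrophage and myeloid markers, per library, with group means and 1 SD (n = 4). The ratio is highest in uninjured control MuSCs (1.68 to 2.10), as are the summed 10 genes (4576 to 7071 CPM) and MuSC markers (4311 to 6784 CPM), while macrophage markers are high only at 3 DPI.

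Partners of these proteins moved after injury as well. In control MuSCs 3 of 6 other laminin chains and netrin 4 were called lower, Lama3 (log2 fold change -2.24), Lamc3 (-1.71) and Ntn4 (-1.34), and 0 higher. Col15a1 (-1.99), Col4a1 (-1.21) and Col4a2 (-0.72) were lower among 8 collagens. Of 13 receptors 5 were lower and 2 higher, with Sdc4 (-1.92), Dag1 (-1.73) and Itga7 (-1.02) among those lower, and Sdc3 (2.41) and Itga6 (1.84), the alpha 6 integrin subunit, those higher. Of 12 assembly genes 3 were lower and 2 higher, with Frem1 (-1.92), Pxdn (-1.31) and Sparc (-0.80) lower and Ecm1 (2.52) and Smoc2 (1.14) higher. Of 10 proteases 3 were lower and 4 higher, with Ctsl, a cathepsin (2.91), Mmp14 (0.99) and Hpse, the heparanase that cuts heparan sulfate chains (1.95), among those higher and Adamts1 (-1.22), Mmp2 (-0.97) and Adamts5 (-0.72) those lower. Of 14 heparan sulfate enzymes 4 were lower, among them Glce (-1.61), Sulf1 (-1.38) and Hs6st2 (-1.40), and 2 higher, Xylt1 (1.34) and Sulf2 (2.696), which removes sulfate groups from the chains.

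Under the TRF2 MuSC-cKO label after injury, 3 receptors were called lower, Dag1 (log2 fold change -1.83), Sdc4 (-1.59) and Itga7 (-1.50), and 1 higher, Sdc3 (2.36). Ecm1 was higher (2.37) and no assembly gene lower. Mmp2 was lower (-2.01) and Ctsl higher (3.74) among the proteases, and Sulf1 was lower (-1.39) among the heparan sulfate enzymes. No collagen, no other laminin chain, not netrin 4 and no glycosylation enzyme was called.

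The difference between the genotype effects without injury and at 3 DPI was tested as an interaction over all 16 libraries. None of the 10 genes was called with edgeR, limma or DESeq2, and none had an unadjusted p under 0.05 in edgeR, where 3 of 16822 genes were called (0.0178%). These were 3 lower and 0 higher, against 78 and 45 with limma and 12 and 9 with DESeq2. Without 3 DPI replicate 3 labelled TRF2 MuSC-cKO, edgeR called 9 lower and 4 higher. The lowest p among the 10 was that of Lamc1 (0.53, SE 0.37, unadjusted p = 0.164, adjusted p = 0.94), followed by Lama4 (-0.58, SE 0.40, adjusted p = 0.94). The other estimates were -0.12 for Lama2, -0.24 for Lama5, -0.10 for Lamb1, 0.07 for Lamb2, -0.0071 for Nid1, 0.35 for Nid2, -0.04 for Hspg2 and -0.28 for Agrn, and those of Lama2, Lamb1, Lamb2, Nid1 and Hspg2 changed sign in some alternatives. Leaving out 1 library each moved Lama5 to between -1.09 and -0.0095, the ends being without 3 DPI replicates 2 and 3 labelled TRF2 MuSC-cKO, Nid2 to between 0.084 and 0.48, and Agrn to between -0.57 and -0.15. The 95% confidence interval for Lamc1 ran from -0.23 to 1.29 on the log2 scale, so that a genotype effect of equal size in both states and one that is smaller at 3 DPI are both within it. The median of the 10 was -0.07, against 0.03 over all genes tested.

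Shares of chains within a library do not depend on how libraries are scaled to each other, but they do on transcript length. They were formed from per-length levels. Each of 6 shares was compared in the 4 pairwise comparisons by a two-sided exact permutation test of 4 against 4 libraries, whose smallest p is 0.0286. Of the 24 tests 10 gave this smallest p, for an adjusted p of 0.0686 (Benjamini-Hochberg over the 24), so that none passed 0.05. No share could pass alone, however large its change, since the adjustment needs more than 10 of the tests at this p.

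Among the laminin alpha chains (Lama1 to Lama5), Lama2 made up 60.9% ± 4.91 (SD, n = 4) in uninjured control and 33.1% ± 4.18 in control MuSCs at 3 DPI, with no overlap. In uninjured TRF2 MuSC-cKO libraries it made up 52.9% ± 4.30, and 22.8% ± 5.49 in the libraries labelled so at 3 DPI, again with no overlap. The share of Lama4 went the other way, in control from 5.49% ± 0.435 to 30.3% ± 6.14, and under the TRF2 MuSC-cKO label from 12.35% ± 2.505 to 40.45% ± 12.65. Every uninjured TRF2 MuSC-cKO library (9.48% to 15.6%) lay above every uninjured control library (5.18% to 6.12%) in it, as did every injured library above every uninjured one of its genotype label (exact permutation test, p = 0.0286, the smallest possible, adjusted p = 0.0686 for each). The share of Lama5 rose from 10.04% ± 3.32 to 19.7% ± 2.01 after injury in control, without overlap, and ran from 3.94% to 29.1% among 3 DPI libraries labelled TRF2 MuSC-cKO. These shares rest on 1004 to 1726 counts of alpha chains per library in uninjured control and on 266 to 567 in libraries labelled TRF2 MuSC-cKO at 3 DPI. The rest of the alpha chains is Lama1 and Lama3, and Lama3 had a mean of 316 CPM in uninjured control, where Lama5 had 160 CPM. A share of a whole also rises when other members fall, as Lama2 and Lama3 did after injury in control.

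Of the beta chains, Lamb2 made up 78.4% ± 2.601 in uninjured control and 78.2% ± 2.02 in uninjured TRF2 MuSC-cKO MuSCs (exact permutation test, p = 0.886). At 3 DPI it made up 51.0% ± 5.13 in control and 53.6% ± 8.85 in the libraries labelled TRF2 MuSC-cKO. The fall did not overlap under either genotype label, while the genotypes overlapped in both states. Nid2 made up 36.2% ± 2.42 of the nidogens in uninjured control and 27.5% ± 3.86 at 3 DPI, without overlap, and 35.4% ± 5.75 and 31.8% ± 14.04 under the TRF2 MuSC-cKO label. Agrn made up 9.05% ± 3.64 of agrin and perlecan in uninjured control and 17.1% ± 2.325 at 3 DPI, without overlap, and 13.5% ± 1.105 and 22.2% ± 8.56 under the TRF2 MuSC-cKO label.

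The size of these shares depends on the transcript length that counts are divided by. With the longest annotated transcript of each gene, an alternative chosen after seeing the data, the mean shares of Lama2, Lama4 and Lama5 in uninjured control were 61.4%, 5.44% and 10.03%, and that of Lamb2 was 51.0% in control at 3 DPI, all close to the values above. With the median length over the annotated transcripts of a gene, which is 606 bases for Lama5 and 473 for Lamb2, where the longest have 11388 and 5629, they differed widely. The share of Lama2 then ran from 33.7% to 49.6% in uninjured control and from 14.5% to 22.0% at 3 DPI, and that of Lama5 from 37.5% to 55.3% and from 58.9% to 66.2%. The share of Lama4 was then 8.87% to 14.5% in control at 3 DPI, and that of Lamb2 93.8% to 95.6% in uninjured control and 80.4% to 87.2% at 3 DPI. All 24 differences kept their sign with either length. With the median length 1 separation was lost, that of the Lama4 share after injury under the TRF2 MuSC-cKO label, where 1 library at 3 DPI had 7.33% and the highest uninjured one 7.74%. The order of the 10 genes moved as well. With the longest length Hspg2 and Lamc1 stayed first and Lama4 last in uninjured control, and with the median length Lamc1 and Lamb2 were first and Agrn last.

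**Figure D4:**
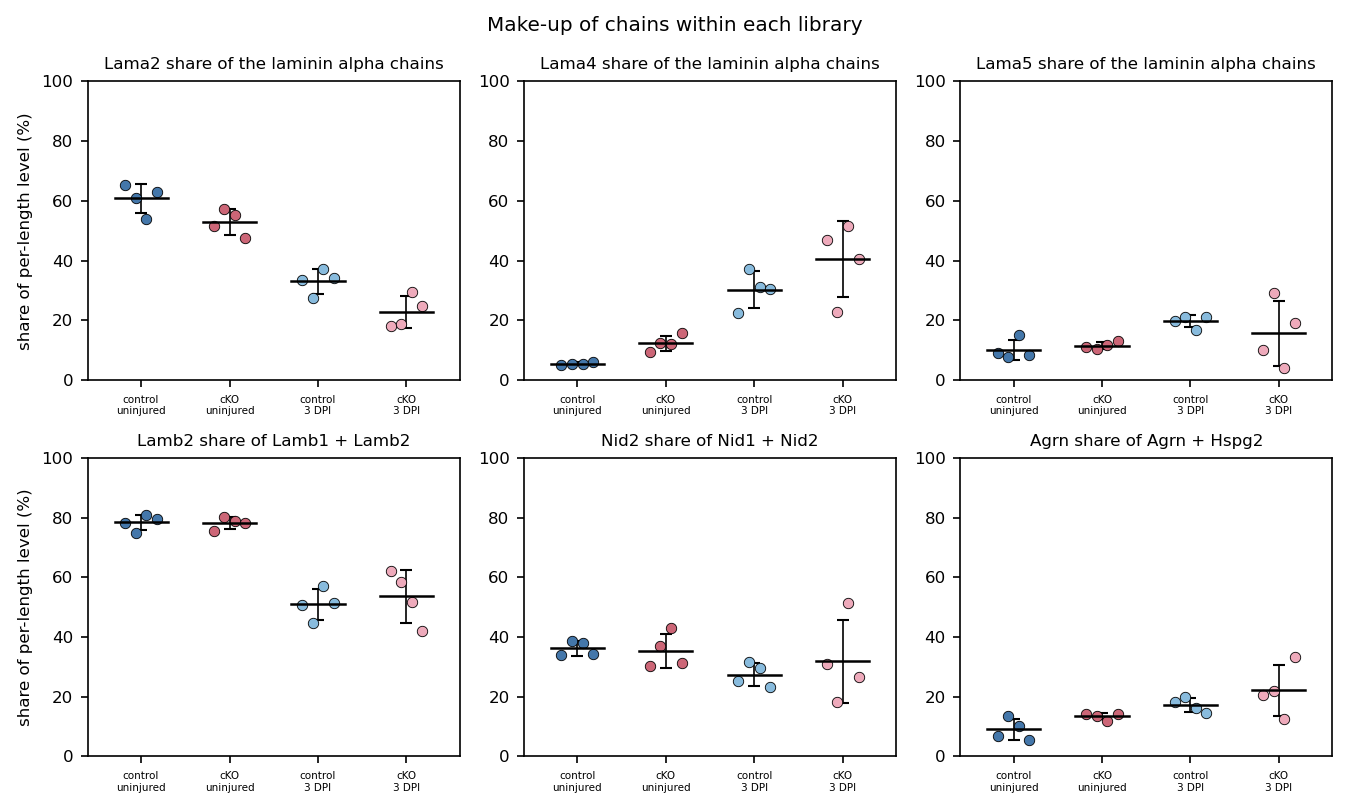
Share (%) of a chain in the summed per-length level of its class, per library, with group means and 1 SD (n = 4). The Lama2 and Lamb2 shares are lower and the Lama4 share higher at 3 DPI under both genotype labels, and the Lama4 share of uninjured TRF2 MuSC-cKO libraries (9.48% to 15.6%) lies above that of uninjured control libraries (5.18% to 6.12%).

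Since each laminin holds 1 gamma and 1 beta chain, Lamc1 was also set against Lamb1 and Lamb2 together, a ratio chosen after its parts had been seen and therefore not tested. On the per-length scale it was 2.10, 1.97, 1.68 and 1.85 in uninjured control libraries and 0.803, 0.690, 0.986 and 0.828 in uninjured TRF2 MuSC-cKO libraries. At 3 DPI it was 0.857, 1.07, 1.04 and 0.823 in control libraries and 0.597, 0.736, 0.235 and 0.831 in those labelled TRF2 MuSC-cKO. With the longest length, uninjured control libraries had 1.69 to 2.11 and uninjured TRF2 MuSC-cKO libraries 0.694 to 0.990. With the median length these were 1.38 to 1.77 and 0.571 to 0.828. Control libraries at 3 DPI had a mean of 0.945 with the rescaled table and of 1.09 with the median length. The value of 0.235 is that of replicate 3, with 69 counts of Lamc1.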

How the data were processed

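MuSC RNA was made into libraries with the CORALL total RNA-seq kit. Per the submitters' processing notes, Trim Galore 0.6.7, STAR 2.6.1d and Salmon 1.5.2 were used, with GRCm38. The deposited table holds estimated counts per gene from the authors' Salmon runs, and a second deposited table holds estimated counts that the authors rescaled by length and library size, which gave the per-length levels. Whether molecular identifiers or strand were used in counting is not given in the sources used here.

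Estimated counts were rounded. Each pairwise comparison was fitted over its 8 libraries, and the interaction over all 16, with edgeR 4.0.16 (robust quasi-likelihood test, TMM, filterByExpr with its minimum count of 10, R 4.3.3). Benjamini-Hochberg adjustment ran over all genes tested, and a call needed an adjusted p under 0.02 and a fold over 1.5. Limma 3.58.1 and DESeq2 1.42.0 served as alternatives, with other scalings, no filter, the replicate number as a block, all libraries in 1 fit, the rescaled table, removal of a trend with length (lowess span 0.3) and each library left out. Shares were tested with SciPy 1.17.1 (Python 3.11.15), and figures drawn with matplotlib 3.10.9. The code was tested on simulated data. Of simulated log2 changes of 2, 87.8% were recovered between uninjured genotypes and 20.3% between genotypes at 3 DPI. After injury these were 86.2% in control and 25.6% under the TRF2 MuSC-cKO label. Of log2 changes of 1, the same comparisons recovered 23.3%, 2.3%, 27.7% and 0%, in this order. Library totals were 620506 to 1351130 counts. Libraries of a group differed by more than counting noise (chi-square per degree of freedom 2.97 to 18.6).

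All 10 members are named in every comparison. From each other list, genes called are named, at most the 3 of smallest p in each direction, and markers only where called or needed beside a result. The glycosylation enzymes after injury in control MuSCs are not reported here. The members and lists were chosen with earlier results of these data known.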

Additional observations from a re-analysis of the deposited data

How the results depend on the processing

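Between the uninjured genotypes, 1 of the 10 genes was called (Lamc1), against 2 with DESeq2 (Lamc1 and Hspg2), 2 with library size alone (Lamc1 and Lama4) and 0 with the rescaled table. Leaving out 1 library each gave 1 to 2, the 2 without TRF2 MuSC-cKO replicate 1. After injury, 5 to 7 of the 10 were called in control (main value 6) and 2 to 4 under the TRF2 MuSC-cKO label (main value 3). Deviations of same-numbered libraries from their group means correlated weakly, at -0.11 to 0.111. Between uninjured genotypes, TRF2 MuSC-cKO replicates 2, 3 and 4 still correlated best with the control library of the same number. With the replicate block the calls were 1 for the uninjured genotypes and 0 for the 3 DPI genotypes. They were 5 for injury in control, 2 for injury under the TRF2 MuSC-cKO label and 0 for the interaction. The replicate block lost Nid1 (log2 fold change 0.65, adjusted p = 0.0238) and Lamb2 (-1.39, adjusted p = 0.0397) after injury. Over all genes, the uninjured genotypes gave 370 lower and 82 higher calls, but 142 and 157 with limma, 212 and 176 with library size alone, 592 and 78 with DESeq2, 70 and 12 with all 16 libraries in 1 fit and 11 and 6 with the rescaled table. After injury, all 16 libraries in 1 fit gave 734 and 861 in control (main values 1452 and 1652). Under the TRF2 MuSC-cKO label (main values 235 and 354) it gave 483 and 721, limma 473 and 547, DESeq2 419 and 559, the replicate block 144 and 220 and the rescaled counts 109 and 174. Library size alone moved the median of all genes from 0.06 to 0.24 between the uninjured genotypes, from 0.07 to 0.23 after injury in control and from 0.01 to 0.13 after injury under the TRF2 MuSC-cKO label. The share tests passed with none of the 3 transcript lengths, but with this smallest p no share could have passed alone. The count of shares passing has no value with a library left out. The cause of these shifts was not tested.

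Estimates near 0 changed sign, none of them called. For the uninjured genotypes, Lama5 was at -0.040, -0.046, -0.092, -0.0071 and -0.060 with DESeq2, no filter, all 16 libraries, the rescaled table and the length trend removed. In the same order Lamb2 was at -0.034, -0.038, -0.089, -0.00082 and -0.071, and Nid1 at -0.072, -0.077, -0.13, -0.031 and -0.11, with -0.017 under median-of-ratios factors. Lamb1 was at -0.044, -0.048, -0.096 and -0.079 without the rescaled table, and -0.0076 with limma. Nid2 was at 0.13 with library size alone. At 3 DPI between genotypes, Lamb2 was at -0.074 (limma), -0.052 (no filter), -0.014 (all 16 libraries), -0.0095 (replicate block) and -0.0018 (rescaled table). Within the shared name code, Lama5 was at 0.11, Nid1 at 0.080 and Nid2 at -0.082. After injury in control, Nid2 was at -0.013 (DESeq2) and -0.023 (rescaled table) and Lama5 at 0.051 (length trend removed). In the interaction, Lamb2 was at -0.031 (limma), -0.080 (library size alone) and -0.049 (no filter), and Nid1 at 0.024 (limma).

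Leaving out 1 library changed further signs. Between uninjured genotypes Lama5 ran from -0.16 to 0.15, Lamb1 from -0.10 to 0.077, Lamb2 from -0.042 to 0.11 and Nid1 from -0.12 to 0.11. At 3 DPI Lama5 ran from -1.05 to 0.038, Lamb2 from -0.22 to 0.15, Nid1 from -0.30 to 0.076 and Agrn from -0.44 to 0.093. The highest of Lama5, Nid1 and Agrn came without replicate 3 labelled TRF2 MuSC-cKO. After injury in control Nid2 ran from -0.055 to 0.12. In the interaction Lama2 ran from -0.29 to 0.015, Lamb1 from -0.26 to 0.021, Lamb2 from -0.17 to 0.21, Nid1 from -0.20 to 0.096 and Hspg2 from -0.23 to 0.073.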
